A study of Mus musculus with 6 samples.

Results

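The genes examined here encode the actin cytoskeleton of the macrophage and of its podosomes. They were taken by symbol from a list of 55 actins, Arp2/3 subunits, WASP and WAVE proteins, and capping, severing, bundling, myosin and membrane-linker genes, and all 55 were found among the 55291 genes of the count table. RNA came from bone marrow-derived macrophages (BMDMs), primary macrophages grown from bone marrow in medium with L929-conditioned supernatant as the source of M-CSF, and was collected after 7 days without a further stimulus. The WT group held 3 C57BL/6 mice (libraries 1, 5 and 6) and the PYK2 KO group held 3 mice of that strain with a knockout of the tyrosine kinase PYK2 (libraries 2, 3 and 4). Each mouse gave 1 library of 2857097 to 3917207 counts, read from the 3′ ends of transcripts, and neither age nor sex was given. Ptk2b, the gene of PYK2, had 568 to 737 counts in the WT libraries and 64 to 71 in the PYK2 KO libraries, lower in every library labelled PYK2 KO.

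Actin monomers assemble into filaments that push the leading edge forward and build podosomes, the dot-shaped adhesions with which macrophages hold to and degrade matrix. The Arp2/3 complex starts branches on existing filaments once WASP or WAVE proteins switch it on, while capping proteins, cofilin and gelsolin stop or cut filaments, and α-actinin, filamin, plastin and myosin II bundle and contract them. WASP, Arp2/3 and cortactin form the podosome core, and PYK2 is known as a kinase of the adhesion ring around it. Migration of PYK2-deficient macrophages was one of the questions of the study, and the transcripts of this machinery are compared here between the genotypes.

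The transcripts of the actin cytoskeleton differed little between WT and PYK2 KO BMDMs. Of the 55 genes, 54 had enough counts to be tested, and 0 passed an adjusted p-value under 0.05 by edgeR's quasi-likelihood F test, with the Benjamini-Hochberg correction over 9815 genes, where 0.255% of all tested genes passed. At an unadjusted p-value under 0.05 there were 2, Tmsb4x and Cotl1, or 3.70% of the 54 against 6.03% of all tested genes. DESeq2 and limma voom also called 0 of the 54. The fold change was above 1 for 28 genes and below 1 for 26, or 51.9% higher against 50.5% of all tested genes. The median log2 fold change (PYK2 KO against WT) was 0.0009 over the 54 genes and 0.0019 over all tested genes. The lowest log2 fold change was -0.22, for Pfn1, and the highest was 0.53, for Tmsb4x, with the next highest at 0.23, for Ezr.

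**Figure D1:**
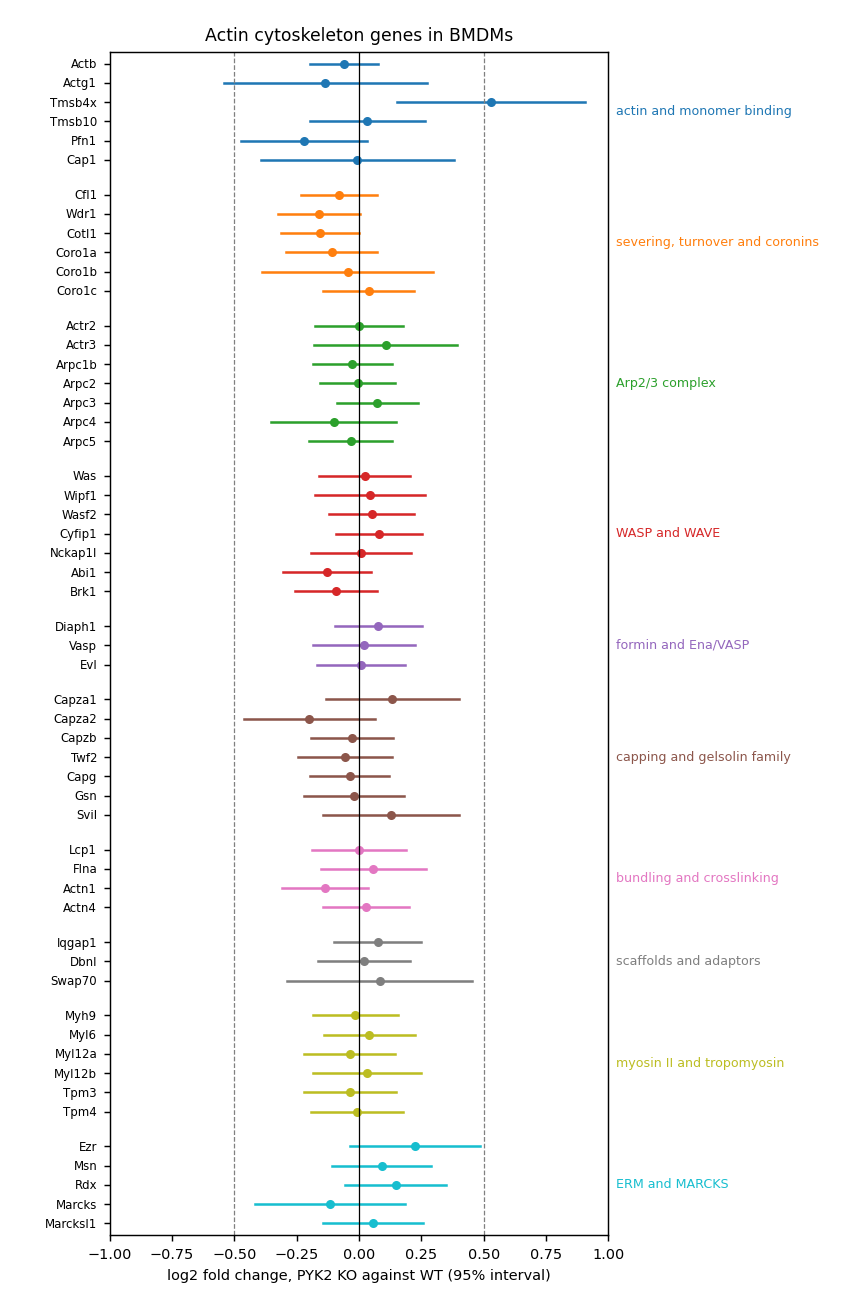
Log2 fold change of PYK2 KO against WT BMDMs for the 54 tested genes, with 95% intervals from the edgeR fit (3 mice per genotype), grouped and colored by role. Dashed lines mark -0.5 and 0.5; 52 of the 54 intervals lie between them, and those of Tmsb4x and Actg1 do not.

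These counts were deep enough to bound the differences. The 95% interval of the log2 fold change lay wholly between -0.5 and 0.5, that is between 0.707-fold and 1.41-fold, for 52 of the 54 genes (96.3%), against 59.8% of all 9815 tested genes and 91.5% of the 5327 tested genes with at least the average count of the lowest gene of the list. The half-width of the interval had a median of 0.18 over the 54 genes and of 0.31 over all tested genes. It ran from 0.14 to 0.41 over the list. The genes outside the band were Tmsb4x, with an interval from 0.15 to 0.91, and Actg1, with an interval from -0.54 to 0.27.

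**Figure D2:**
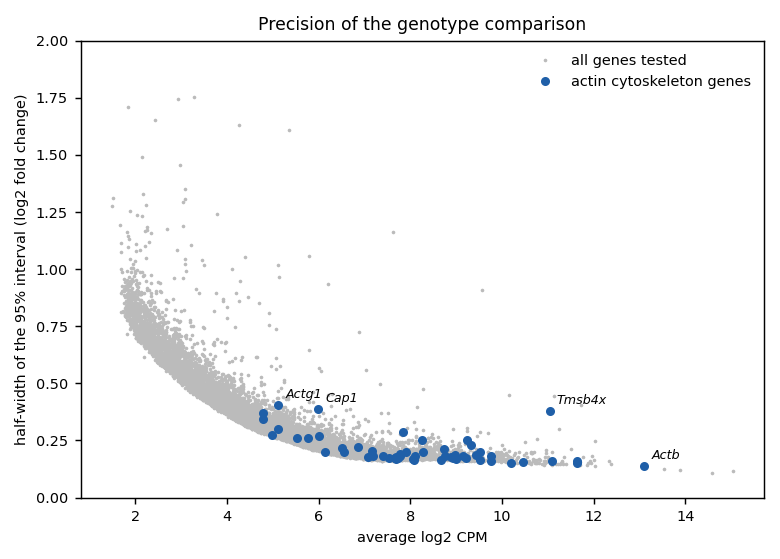
Half-width of the 95% interval of the log2 fold change (vertical axis) against the average log2 CPM (horizontal axis) for all 9815 tested genes (grey) and the 54 actin cytoskeleton genes (blue). The half-width is 0.14 for Actb and 0.41 for Actg1, the ends of the list, and Tmsb4x is wider than most genes of its count; 2 of the grey genes lie above the axis.

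The ranges of the genotypes did not overlap for 4 of the 54 genes (7.41%), against 10.2% of all tested genes. Cotl1, Wdr1 and Brk1 were on the lower side and Rdx on the higher side. With 3 against 3 mice, a two-sided exact permutation test of a single gene cannot give less than p = 0.1. The share of all counts that fell on the 55 genes was 3.62%, 3.57% and 3.62% in WT libraries 1, 5 and 6 and 3.64%, 3.65% and 3.54% in PYK2 KO libraries 2, 3 and 4. This was 3.61% ± 0.029 with PYK2 and 3.61% ± 0.063 without it (SD, 3 mice per genotype). The Wilson 95% interval of the lowest share, in PYK2 KO library 4, ran from 3.52% to 3.56%. That of the highest, in PYK2 KO library 3, ran from 3.63% to 3.67%. The libraries of 1 genotype so differed by more than counting error, with each count taken as 1 molecule.

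Actin is encoded here by Actb and Actg1. Actb, β-actin, lies on chromosome 5 from 142903115 to 142906754 (GRCm38, minus strand). Its normalized counts were 8654, 9116 and 9213 CPM (counts scaled by TMM to a common library size) in WT libraries 1, 5 and 6 and 9045, 8910 and 7950.4 CPM in PYK2 KO libraries 2, 3 and 4. The groups overlapped, with PYK2 KO library 4 below the rest. The means were 8994 ± 298 and 8635 ± 597 CPM (SD, 3 mice per genotype), a log2 fold change of -0.059 with a 95% interval from -0.20 to 0.078 (adjusted p = 0.952, edgeR with Benjamini-Hochberg adjustment).

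Actg1, γ-actin, on chromosome 11 from 120345690 to 120348542 (GRCm38, minus strand), had 103, 158 and 106 counts in WT libraries 1, 5 and 6 and 118, 103 and 82 in PYK2 KO libraries 2, 3 and 4. The groups overlapped at 35.9 ± 9.03 and 32.7 ± 7.20 CPM (SD, 3 mice per genotype). Its variance over the 6 libraries was 5.85 times that of counting alone. The counts of this gene are uncertain, because the last 300 bases of its transcripts share 50-base stretches with Actb and with several processed pseudogenes, to which its reads could also map.

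**Figure D3:**
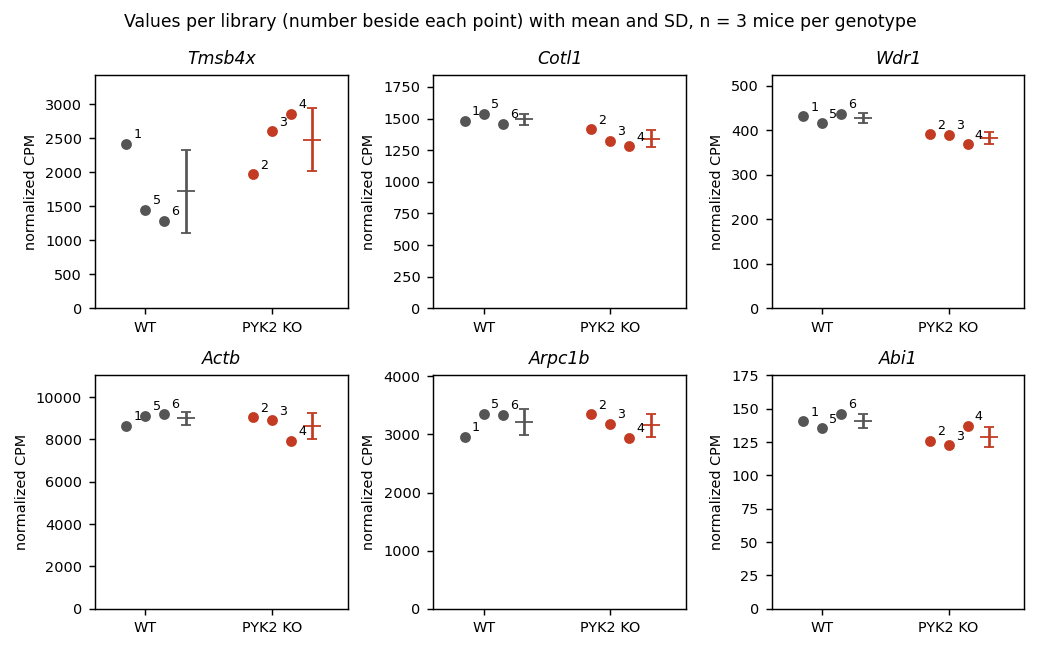
Normalized CPM in each library (numbers beside the points) for Tmsb4x, Cotl1, Wdr1, Actb, Arpc1b and Abi1, with the mean and SD of 3 mice per genotype on axes that start at 0. The 3 PYK2 KO values of Cotl1 and Wdr1 lie below the 3 WT values, while WT library 1 makes the Tmsb4x groups overlap.

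Actin genes are textbook targets of serum response factor, which binds the CArG box and is turned on when actin monomers run low. In RefSeq promoter windows (GRCm38.p6) available for 46 of the 55 genes, the CArG box, searched by its consensus within 250 bases upstream of the start on both strands, since it reads alike on each, occurred in 3 (6.52%), against 1.62% of 27025 genes with a window. Some genes have several windows, and per window the box was in 3 of 59 (5.08%) against 1.47% of all 32851. The entries missing were Actb, Cotl1, Coro1b, Cyfip1, Nckap1l, Diaph1, Twf2, Svil and Marcks. A match of letters is a description and not evidence of binding. The stretches with the box are shown in the gene's own direction, with the box in capitals, because the box is the known site of that factor. They lie at chr11:120348551-120348610 (minus strand) for Actg1, chr6:113377863-113377897 (plus strand) for Arpc4 and chr10:128493025-128493084 (minus strand) for Myl6.
Actg1: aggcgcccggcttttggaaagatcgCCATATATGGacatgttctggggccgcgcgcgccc
Arpc4: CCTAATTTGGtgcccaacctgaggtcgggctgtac
Myl6: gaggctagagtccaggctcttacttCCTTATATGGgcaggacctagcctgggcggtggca
Counted from the RefSeq start of each window, the box begins 90 bases upstream in Actg1, 250 in Arpc4 and 50 in Myl6. These starts are at base 120348495 of chromosome 11, base 113378113 of chromosome 6 and base 128493009 of chromosome 10. That of Actg1 lies 47 bases, and that of Myl6 1136 bases, inside the GENCODE gene, and Myl6 has 2 windows, of which the one at this inner start holds the box. The log2 fold changes of these genes were -0.14, -0.10 and 0.040, and each interval included 0.

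The largest difference of the list was that of Tmsb4x, thymosin β4, the small peptide that holds actin monomers in reserve. The gene lies on chromosome X from 167207093 to 167209315 (GRCm38, minus strand). Its values were 2424, 1449.9 and 1289.5 CPM in WT libraries 1, 5 and 6 and 1978, 2607 and 2867 CPM in PYK2 KO libraries 2, 3 and 4. WT library 1 lay above PYK2 KO library 2, so the groups overlapped. The means were 1721 ± 614 and 2484 ± 457 CPM (SD, 3 mice per genotype), a log2 fold change of 0.53 with a 95% interval from 0.15 to 0.91, an unadjusted p-value of 0.00918 and an adjusted p = 0.591 (edgeR, Benjamini-Hochberg correction). Counting error was not the limit, since the variance over the libraries was 620 times that of counting alone, with each count taken as 1 molecule.

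Whether Tmsb4x was called changed with 1 library and with the filter on low counts. Without WT library 1 its log2 fold change was 0.86 and it passed (adjusted p = 0.00382, edgeR with Benjamini-Hochberg adjustment), the only one of the 54 genes to do so in that fit. The value fell to 0.36 without WT library 6, to 0.42 without WT library 5 and to 0.41 without PYK2 KO library 4, where the unadjusted edgeR p-values were 0.058, 0.062 and 0.055. DESeq2 on all 6 libraries gave 0.53 with an unadjusted p-value of 0.113. Tmsb4x also passed without a filter on low counts, at the nearly equal log2 fold change of 0.52 (adjusted p = 9.47e-09 in the same edgeR test). That fit lowered the p-value of Ptk2b too, from an adjusted p of 1.03e-11 to 1.35e-154 in edgeR's test, at log2 fold changes of -3.15 and -3.16. Over all alternatives the adjusted p-value of Tmsb4x ran from 9.47e-09 to 0.9999. The libraries with the most Tmsb4x were WT library 1 and PYK2 KO libraries 3 and 4. B2m, the light chain of MHC class I, was highest in the same libraries, at 971, 1046 and 1521 CPM against 263 and 213 CPM in WT libraries 5 and 6 and 523 CPM in PYK2 KO library 2. So was the sum of a list of 12 neutrophil and progenitor markers, at 357, 437 and 503 CPM in those libraries against 259 to 318 CPM in the others. The ranges of that sum were 259 to 357 CPM in WT and 296 to 503 CPM in PYK2 KO libraries. Of the 12 markers 7 passed the filter and 0 were called, and the neutrophil marker Ly6g had 1 count in all. Mmp8 had the most counts of the list in each library, at 456 to 913. Camp did not follow the sum, with 26 counts in WT library 1 against 36 in WT library 5. The part of B2m and of these markers in the Tmsb4x values was not tested.

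Tmsb10, thymosin β10, is the second monomer-holding peptide of this family. It was at 509, 703 and 674 CPM in WT libraries 1, 5 and 6 and at 704, 619 and 607 CPM in PYK2 KO libraries 2, 3 and 4, with WT library 1 the lowest. The log2 fold change was 0.033 with a 95% interval from -0.20 to 0.26. The ratio of Tmsb4x to Tmsb10 counts was 4.76, 2.06 and 1.91 in WT and 2.81, 4.21 and 4.72 in PYK2 KO libraries. WT library 1 had the highest ratio of all, so the genotypes overlapped here too.

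Pfn1, profilin, delivers monomers to growing filament ends. It had the lowest fold change of the list, with 383, 277 and 318 CPM in WT libraries 1, 5 and 6 and 321, 274 and 245 CPM in PYK2 KO libraries 2, 3 and 4. The groups overlapped, and the difference of -0.22 on the log2 scale had a 95% interval from -0.47 to 0.032 (adjusted p = 0.888, edgeR with Benjamini-Hochberg adjustment). Leaving out WT library 1 brought it to -0.085 and leaving out PYK2 KO library 4 to -0.13, while it reached -0.33 when either WT library 5 or PYK2 KO library 2 was dropped. Cap1, cyclase-associated protein, recycles monomers from cofilin. Its WT library 1 stood at 89.6 CPM against 47.0 and 50.8 CPM in WT libraries 5 and 6, while the PYK2 KO libraries stayed between 60.0 and 65.8 CPM. The means were 62.5 ± 23.6 and 62.9 ± 2.91 CPM (SD, 3 mice per genotype).

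Among the genes of filament turnover 0 passed the adjusted threshold. Cotl1, coactosin-like protein, binds filaments. It was at 1484, 1539.5 and 1458 CPM in WT libraries 1, 5 and 6 and at 1414, 1325 and 1281 CPM in PYK2 KO libraries 2, 3 and 4. Every PYK2 KO value was below every WT value, by means of 1494 ± 41.7 against 1339.8 ± 67.7 CPM (SD, 3 mice per genotype). The log2 fold change was -0.16 with a 95% interval from -0.31 to -0.0016, an unadjusted p-value of 0.048 and an adjusted p = 0.823 in edgeR's test with Benjamini-Hochberg adjustment.

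Wdr1, also known as AIP1, speeds the disassembly of cofilin-coated filaments. It was at 432, 416 and 438 CPM in WT libraries 1, 5 and 6 and at 391, 390.4 and 368 CPM in PYK2 KO libraries 2, 3 and 4. The groups did not overlap. PYK2 KO BMDMs had 89.4% of the WT mean, a log2 fold change of -0.16 with a 95% interval from -0.33 to 0.0047 (adjusted p = 0.851, edgeR with Benjamini-Hochberg adjustment).

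Cfl1, cofilin, the severing protein these act with, overlapped between the groups. Its values were 3266, 3447 and 3076 CPM in WT libraries 1, 5 and 6 and 3224, 3133 and 2892 CPM in PYK2 KO libraries 2, 3 and 4, a log2 fold change of -0.082 with a 95% interval from -0.23 to 0.070. That fold change lay between -0.12 and -0.038 with single libraries dropped. Coro1a, coronin 1A, the coronin of blood cells that helps to unload Arp2/3 from branches, was at 877, 861 and 959 CPM in WT and at 881, 869 and 747 CPM in PYK2 KO libraries. Only PYK2 KO library 4 lay below the WT range, and the log2 fold change was -0.11 with a 95% interval from -0.29 to 0.070. With single libraries dropped it lay between -0.15 and -0.038, the latter without PYK2 KO library 4. The other coronins were close to 0, Coro1b at -0.046 and Coro1c at 0.038 on the log2 scale. In this group of 6 genes, 1 had a fold change above 1, against 50.5% of all tested genes, the median log2 fold change was -0.096, and 0 were called. Summed over the group, the level was 6674 ± 170 CPM in WT BMDMs and 6242 ± 364 CPM without PYK2 (SD, 3 mice per genotype), or 93.5% of WT. The groups overlapped, with 6576 CPM in PYK2 KO library 2 against 6534 CPM in WT library 6, and PYK2 KO library 4 was the lowest at 5853 CPM.

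The 7 subunits of the Arp2/3 complex summed to 6765, 7225 and 7252 CPM in WT libraries 1, 5 and 6 and to 7234, 7010.5 and 6822 CPM in PYK2 KO libraries 2, 3 and 4. These overlapped, and the PYK2 KO mean was 99.2% of the WT mean. None of the 7 was called, with a smallest adjusted p = 0.9497 in edgeR's test with Benjamini-Hochberg adjustment, and their log2 fold changes ran from -0.10, for Arpc4, to 0.11, for Actr3. The 95% intervals of all 7 lay within 0.5 of 0, with the outermost bounds at -0.35 and 0.39.

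Arpc1b, the subunit of blood cells that binds the activating WASP proteins, was at 2964, 3355 and 3337 CPM in WT and at 3346, 3183 and 2948 CPM in PYK2 KO libraries. Arpc3 had the smallest p-value of the complex, at 894, 812 and 827 CPM in WT and 879, 875 and 911 CPM in PYK2 KO libraries, with overlapping groups and a log2 fold change of 0.073 (95% interval from -0.088 to 0.23). Arpc2, a subunit of the core that holds the mother filament, had the smallest range of the list. Its highest library exceeded its lowest by 1.04 times, and its variance was 0.990 times that of counting alone, at 1180.2 ± 24.6 CPM in WT BMDMs and 1175 ± 17.1 CPM without PYK2 (SD, 3 mice per genotype).

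The actin-related proteins Actr2 (Arp2) and Actr3 (Arp3) form the seed of the new branch. Actr2 was at 474 ± 22.2 CPM in WT BMDMs and 475 ± 33.4 CPM without PYK2 (SD, 3 mice per genotype). Actr3 varied more, with 272 CPM in WT library 1 and 240.0 and 274 CPM in PYK2 KO libraries 3 and 4 against 186 to 201 CPM in the other 3 libraries. The libraries high in Actr3 were the same as those high in Tmsb4x. Arpc4 was low in 2 of those 3, at 516 CPM in WT library 1 and 496 CPM in PYK2 KO library 4, against 575 to 695 CPM elsewhere. Arpc4 shares 50-base stretches with transcripts annotated to Ttll3, a gene counted at 1.56% of its level. Arpc5 was at 520 ± 25.6 and 508 ± 17.0 CPM (SD, 3 mice per genotype).

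**Figure D4:**
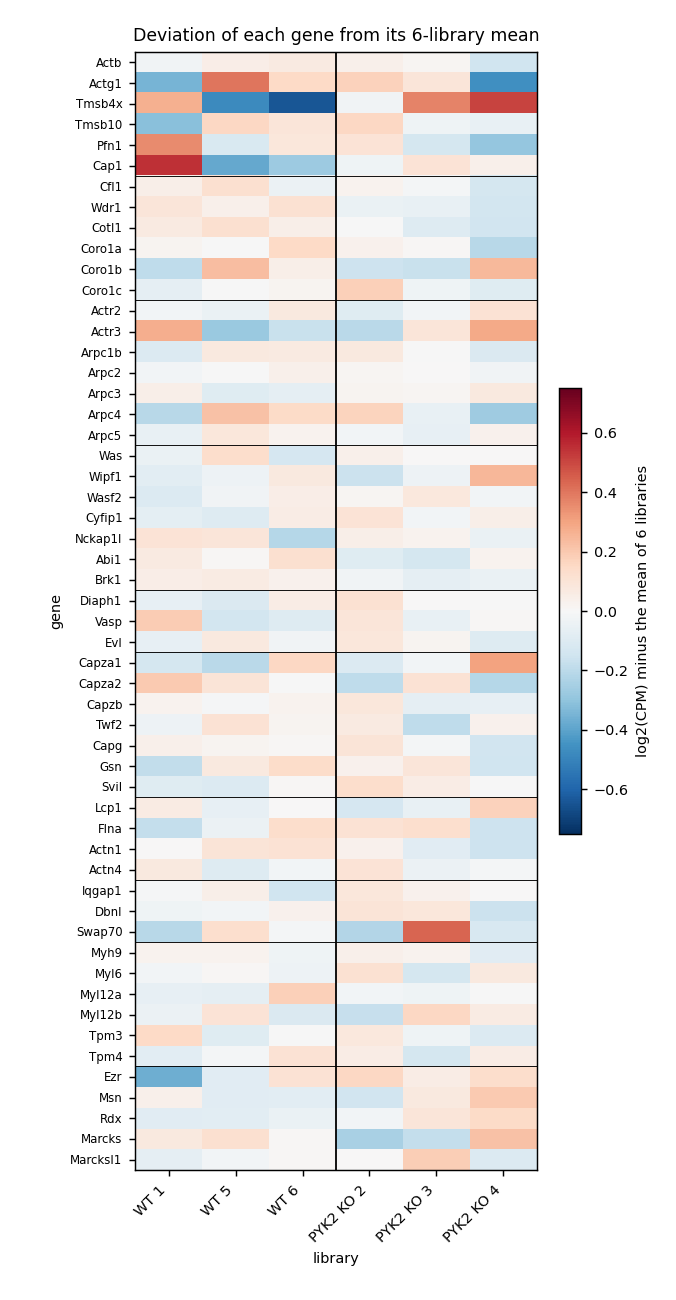
Deviation of log2 CPM from the mean of the 6 libraries for each of the 54 tested genes (rows, in role order, with lines between roles) in each library (columns, WT left and PYK2 KO right of the line). The strongest colors are in Tmsb4x, Cap1, Actg1 and Swap70, and most genes are pale in all 6 libraries.

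The activators of Arp2/3 were as flat. Was, the WASP protein that is mutated in Wiskott-Aldrich syndrome and drives podosome cores, was at 143 ± 13.4 CPM in WT BMDMs and 146 ± 1.87 CPM without PYK2 (SD, 3 mice per genotype), and Wipf1, the WIP protein that stabilizes it, at 113 ± 6.30 and 116 ± 17.4 CPM. Wasf2, the WAVE protein of the leading edge, was at 203 ± 10.5 and 209.6 ± 7.51 CPM. Near their 3′ ends, transcripts of Was share 50-base stretches with those of many other counted genes, so the counts of Was are uncertain. The log2 fold changes of Was, Wipf1 and Wasf2 were 0.023, 0.043 and 0.050, and no interval reached 0.3 in either direction.

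In the WAVE regulatory complex, Brk1, its smallest subunit, was at 277, 279 and 273 CPM in WT libraries 1, 5 and 6 and at 263, 256 and 259 CPM in PYK2 KO libraries 2, 3 and 4. The groups did not overlap, but the difference was small, with PYK2 KO at 93.7% of WT and a 95% interval of the log2 fold change from -0.26 to 0.070 (adjusted p = 0.935, edgeR with Benjamini-Hochberg adjustment). Abi1, the Abl-interacting subunit, was at 141, 135 and 146 CPM in WT and at 126, 123 and 137 CPM in PYK2 KO libraries, and overlapped through PYK2 KO library 4. Nckap1l, or HEM1, the scaffold found in blood cells, was at 332, 330.0 and 267 CPM in WT and at 319.5, 316 and 299 CPM in PYK2 KO libraries, a log2 fold change of 0.0065. Cyfip1, the subunit that binds Rac, had a log2 fold change of 0.081. Over the 7 WASP and WAVE genes 5 fold changes were above 1 and 2 below, with a median log2 fold change of 0.023.

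Unbranched filaments are made by formins and protected by Ena/VASP proteins. Diaph1, the formin mDia1, was at 203, 197 and 221 CPM in WT and at 230.0, 212 and 212 CPM in PYK2 KO libraries, which overlapped. Its log2 fold change was 0.076 with a 95% interval from -0.098 to 0.25. Vasp and Evl, the Ena/VASP members, had log2 fold changes of 0.020 and 0.0071. Vasp was highest in WT library 1, at 161 CPM against 128 to 150.1 CPM in the other 5 libraries.

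Capping protein, which closes the growing end, is a dimer of Capzb with Capza1 or Capza2. Capza2 was at 51.6, 48.1 and 44.9 CPM in WT libraries 1, 5 and 6 and at 39.5, 48.5 and 38.7 CPM in PYK2 KO libraries 2, 3 and 4. The groups overlapped through PYK2 KO library 3, and the log2 fold change of -0.20 had a 95% interval from -0.46 to 0.063. The other α subunit, Capza1, pointed the opposite way, at 0.13 with an interval from -0.13 to 0.40, and Capzb was at -0.027. The difference between Capza1 and Capza2 was not tested.

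Among the gelsolin family, Capg, the macrophage capping protein, was at 2230.0, 2203 and 2189 CPM in WT and at 2331, 2151 and 1969 CPM in PYK2 KO libraries. The PYK2 KO values lay on both sides of the WT values, with means of 2207 ± 20.9 and 2150.3 ± 181 CPM (SD, 3 mice per genotype). Gsn, gelsolin, which cuts filaments and is a podosome component, had a log2 fold change of -0.020 with a 95% interval from -0.22 to 0.18. Svil, supervillin, which links myosin II to podosomes, was at 29.7 ± 1.29 and 32.4 ± 1.51 CPM (SD, 3 mice per genotype), a log2 fold change of 0.13 with an interval from -0.14 to 0.40. Twf2, twinfilin 2, was at -0.056 on the log2 scale.

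Fscn1, fascin, the bundler of filopodia, was the one gene of the list without enough counts. It had 2, 0 and 3 counts in WT libraries 1, 5 and 6 and 1, 1 and 0 in PYK2 KO libraries 2, 3 and 4, at or under the floor of 3 counts in each, so it gave no comparison at this depth. The bundler of blood cells, Lcp1 or L-plastin, was at 717, 656 and 688 CPM in WT and at 628, 660.2 and 773 CPM in PYK2 KO libraries. Its log2 fold change was 0.0005 with a 95% interval from -0.19 to 0.19.

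Actn1 and Actn4, the α-actinins, crosslink filaments and anchor them at adhesions. Actn1 was at 186, 198 and 200.1 CPM in WT libraries 1, 5 and 6 and at 190, 175 and 167 CPM in PYK2 KO libraries 2, 3 and 4. PYK2 KO library 2 lay within the WT range, and the log2 fold change was -0.14 with a 95% interval from -0.31 to 0.037 (adjusted p = 0.903, edgeR with Benjamini-Hochberg adjustment). Actn4 was at 588 ± 34.8 and 600 ± 32.4 CPM (SD, 3 mice per genotype). Flna, filamin A, which joins filaments at angles and ties them to integrins, had a log2 fold change of 0.056 with a 95% interval from -0.15 to 0.27.

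Of the scaffolds, Iqgap1, which holds Rac1 and Cdc42 at filaments, was at 483, 502 and 438 CPM in WT and at 515, 497 and 487 CPM in PYK2 KO libraries, with overlapping groups and a log2 fold change of 0.074. Dbnl, drebrin-like, an adaptor between actin and endocytosis, was at 167 ± 3.94 and 170 ± 16.6 CPM (SD, 3 mice per genotype). Swap70, a filament-binding partner of Rac, was at 36.4 CPM in PYK2 KO library 3 and between 23.1 and 29.4 CPM in the other 5 libraries. It was counted at 72 to 105 reads per library, and its interval, from -0.29 to 0.45, was among the widest of the list.

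Myosin II pulls on filaments, and tropomyosin decorates them. The 6 genes of this group had log2 fold changes between -0.038 and 0.040, the narrowest spread of any role with more than 3 genes here, and a summed level of 1795 ± 47.5 CPM in WT BMDMs and 1775 ± 51.3 CPM without PYK2 (SD, 3 mice per genotype). Myh9, the heavy chain, was at 267 ± 6.03 and 265 ± 12.1 CPM. Myl6, the essential light chain, was at 269, 274 and 266 CPM in WT and at 295, 249 and 287 CPM in PYK2 KO libraries, with the PYK2 KO values around the WT values. It shares 50-base stretches near its 3′ end with processed pseudogenes counted at up to 2.41% of its level. Tpm3, a tropomyosin, was at 558, 472 and 501 CPM in WT and at 532, 492 and 469 CPM in PYK2 KO libraries, and Tpm4 had a log2 fold change of -0.0081. Myl12a and Myl12b, the regulatory light chains, were at -0.038 and 0.031. These last genes share 50-base stretches near their 3′ ends with each other, so their split of reads is uncertain.

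The ERM proteins tie filaments to the cell membrane, and all 3 had fold changes above 1 without a call. Ezr, ezrin, was at 41.9, 50.9 and 58.2 CPM in WT libraries 1, 5 and 6 and at 60.0, 56.1 and 59.0 CPM in PYK2 KO libraries 2, 3 and 4. The groups overlapped, WT library 1 was the lowest, and the log2 fold change of 0.23 had a 95% interval from -0.035 to 0.49 (adjusted p = 0.894, edgeR with Benjamini-Hochberg adjustment). It was 0.10 without WT library 1 and 0.33 without WT library 6. Rdx, radixin, was at 65.9, 66.1 and 67.6 CPM in WT and at 69.0, 74.5 and 77.2 CPM in PYK2 KO libraries. Its groups did not overlap, and the log2 fold change of 0.15 had a 95% interval from -0.055 to 0.35. Msn, moesin, the main ERM protein of leukocytes, was at 246, 226 and 226 CPM in WT and at 217, 252 and 274 CPM in PYK2 KO libraries, a log2 fold change of 0.090. That value was 0.0095 without PYK2 KO library 4 and 0.18 without PYK2 KO library 2. Marcks and Marcksl1, which bind membrane and filaments under protein kinase C control, were at -0.12 and 0.056 on the log2 scale.

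Over the 6 libraries of both genotypes together, the highest library exceeded the lowest by a median of 1.199 times over the 54 genes, against 1.38 times over all tested genes and 1.26 times over the 5327 tested genes at or above the lowest gene of the list. The ratio was above 1.5 for 5 of the 54 genes, against 36.3% of all tested genes and 10.7% of those 5327. The 5 were Tmsb4x (2.22), Cap1 (1.91), Actg1 (1.81), Swap70 (1.57) and Pfn1 (1.56), 4 of them in the group of actin and its monomer-binding proteins. The median deviation of the 54 genes from their means was between -0.024 and 0.032 on the log2 scale in every library. PYK2 KO library 4 was the highest or the lowest of the 6 for 30 of the 54 genes, and the lowest for 19. Each of the other libraries was at an end for 11 to 21 genes. These counts were not made over all tested genes, so they do not set the list apart. The number of the 54 genes at an unadjusted edgeR p-value under 0.05 was 0 without PYK2 KO library 4 (4.44% of all tested genes) and 1 without WT library 5 (4.71%). It was 3 when WT library 1 (6.56%) or PYK2 KO library 2 (6.89%) was left out. Dropping WT library 6 (6.95%) or PYK2 KO library 3 (5.62%) gave 2.

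Of 177 other genes of actin regulation and podosomes in the table, 141 were tested. At an adjusted p-value under 0.05 in edgeR's test 1 of the 141 passed, against 0.255% of all tested genes. These genes were listed with earlier results of the data known, so a call among them is a description and not a test of the list. The gene called was Lima1, or EPLIN, a filament crosslinker that slows branching and depolymerization, on chromosome 15 from 99778470 to 99875456 (GRCm38, minus strand). It was at 43.7, 47.6 and 40.3 CPM in WT libraries 1, 5 and 6 and at 81.2, 78.3 and 90.9 CPM in PYK2 KO libraries 2, 3 and 4. The groups did not overlap, and Lima1 rose 1.90-fold (log2 fold change 0.93, standard error 0.11, adjusted p = 0.000380, edgeR with Benjamini-Hochberg adjustment). None of the tested bundling and crosslinking genes of the list above passed.

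The other 140 genes gave no call. The median log2 fold change of the 141 was -0.0019, with 68 above and 73 below 0. Among the 13 kinases and phosphatases 0 passed, as among the 26 other nucleation and elongation genes, the 9 other myosins and the 33 podosome and adhesion plaque genes that were tested. At an unadjusted p-value under 0.05 there were 9 of the 141 (6.38%), against 6.03% of all tested genes. These were Lima1, Fgr, Washc4, Cdc42 and Lims1 with fold changes above 1, and Ssh1, Lpxn, Src and Myo1e with fold changes below 1, named here after their values were seen. Ssh1, slingshot, the phosphatase that switches cofilin on, was at 67.5 ± 5.64 and 55.5 ± 5.99 CPM (SD, 3 mice per genotype). Cdc42, the GTPase upstream of WASP, was at 295 ± 36.3 and 359 ± 57.1 CPM, with overlapping groups and its highest values in WT library 1 and PYK2 KO libraries 3 and 4.

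All 11 macrophage markers, among them Adgre1, were detected and tested, and 0 were called. They summed to between 31718 and 32730 CPM in the WT libraries and between 32664 and 33967 CPM in the PYK2 KO libraries. Lyz2 made up most of this sum, at 69149 to 92161 counts per library. Stromal and smooth muscle markers, whose own actins and myosins could add to this list, summed to 5.60 to 9.45 CPM in WT and 9.70 to 9.95 CPM in PYK2 KO libraries, of which Acta2, smooth muscle actin, made up most at 17 to 29 counts. Myh11, Cnn1, Des, Dcn and Lum had 0 counts. A list of 8 B cell markers summed to 370 to 402 CPM in WT and 337 to 380 CPM in PYK2 KO libraries. Ighm made up most of it, at 904 to 1367 counts, while 5 of the 8 had 0 counts. In bulk RNA, fewer cells of a type and less RNA per cell cannot be told apart.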

How the data were processed

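RNA-seq of BMDMs from 3 WT and 3 PYK2 KO mice was analyzed from the table that the authors deposited, which holds whole-number counts per gene symbol without normalization. Library construction followed bulk MARS-seq, which reads transcript 3′ ends. Per the submitters' processing notes, reads were trimmed with cutadapt and mapped with STAR to mm10, and the paper names the UTAP pipeline. Whether molecular identifiers were collapsed is not given in the sources used here, so the Wilson intervals of shares and the floor on counts cover counting error only. Columns were matched to mice by name, and 0 columns belonged to other samples. The paper gives 3 mice per genotype, while the labels number the samples without naming animals. No pair of libraries within a genotype agreed within sampling noise (chi-square per degree of freedom of at least 2.15).

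Low-count genes were dropped by filterByExpr, counts were scaled with TMM, and genotype was tested over all 9815 remaining genes with edgeR 4.0.16 in R 4.3.3 (quasi-likelihood F test, Benjamini-Hochberg adjustment, threshold 0.05). Standard errors were the log2 fold change divided by the root of the F statistic, and 95% intervals used the t distribution at the fit's degrees of freedom. Alternatives were DESeq2 1.42.0, limma 3.58.1, edgeR's likelihood ratio test, other scalings and filters, and leaving out each library. The members and lists were chosen with earlier results of these data known. Values of every library are given for the 12 genes with the smallest p-values, Actb, Actg1, and the gene with the smallest p-value and the most counts of each of 10 roles, and for others where a library stood apart. No sets were tested. Positions are from GENCODE M21 and promoter windows from RefSeq, both on GRCm38, the assembly called mm10. Shared stretches were 50-base words in the last 300 bases of protein-coding transcripts, and 16 of the 55 genes shared at least 1 with another gene.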

Additional observations from a re-analysis of the deposited data

How the results depend on the processing

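No paired analysis was made, because the labels give no pairing of the libraries and the genotypes have no replicate number in common. The number of actin cytoskeleton genes called was 1 without a filter on low counts (Tmsb4x), where 159 of 18659 genes passed, and 0 under the other 6 alternatives. Dropping single libraries gave 0 to 1 calls, the 1 being Tmsb4x without WT library 1. The number at an unadjusted p-value under 0.05 was 1 with the likelihood ratio test (5.76% of all tested genes). It was 3 with limma voom (6%) and in edgeR's test without a filter (5.26%), and 2 under the other alternatives (2.76% to 6.05%). When single libraries were dropped it was 0 to 3 (4.44% to 6.95%). The number whose groups do not overlap was 6 with library totals alone (11.1% of the list against 10.3% of all genes) and 5 without a filter (9.09% against 8.19%), so the list's share was then above that of all genes. With single libraries dropped it was 7 to 13, or 13% to 24.1% of the list against 18% to 22.6% of all genes tested in those fits. The number of all genes called was between 20 (limma voom) and 159 (no filter), and between 14 and 34 when single libraries were dropped. The median log2 fold change of the list stayed between -0.023 and 0.0098, and 46 to 53 intervals stayed within 0.5 of 0. The other actin genes gave 1 call in every fit. The Ptk2b value stayed between -3.19 and -3.11.

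Of 325 values for 25 single genes, 307 had the direction and the call first given, 2 became calls (both Tmsb4x) and 16 changed direction, none of them called. Lcp1 changed direction without a filter (-0.0044) and with limma voom (-0.0039), and Nckap1l without a filter (-0.00070). When single libraries were dropped, the log2 fold change lay between -0.094 and 0.061 for Lcp1, -0.087 and 0.059 for Nckap1l, -0.33 and 0.054 for Actg1, -0.083 and 0.020 for Arpc1b, -0.10 and 0.022 for Capg, -0.0086 and 0.11 for Myl6, and -0.091 and 0.032 for Tpm3. The cause of these changes was not tested. Depth limits Fscn1, at 3 counts or fewer in each library.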
